A study of Homo sapiens with 16 samples.

Results

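Chromosomes 1 and 20 of the Rh30 genome were followed here through the first day after dTAG47, across all open chromatin regions that the deposited count tables place on them. The 2 chromosomes were selected on their shares of regions called higher at 2 h, which exceed those of most other autosomes. Every gain at 2 h below is therefore given as a description without a test and supports nothing by itself. Experiment 6086 held 8193 such regions, 6187 on chromosome 1 and 2006 on chromosome 20, which made up 14.4% of its 56949 regions. Experiment 6211 held 6077, with 4608 on chromosome 1 and 1469 on chromosome 20, or 14.9% of its 40844 regions. A filter on low counts removed 3 regions of chromosome 1 in 6086 and none in 6211, leaving 8190 and 6077 regions tested.

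Rh30 is a fusion-positive rhabdomyosarcoma cell line. Its PAX3-FOXO1 fusion joins the DNA-binding part of PAX3 to the activation domain of FOXO1 and holds enhancers of the muscle lineage open. In all libraries the fusion carried an FKBP tag, and dTAG47 is a degrader that brings FKBP-tagged proteins to a ubiquitin ligase. Experiment 6086 compared cells in DMSO, the solvent, with cells given 500 nM dTAG47 for 2, 4 or 24 h. Experiment 6211 did the same for 0.5, 1 and 2 h with its own DMSO cells. Each of the 8 groups had 2 libraries, called A and B after the column names, so there were 16 in all. Control and treated cells are both tagged and no untagged cells received dTAG47 here, so effects of the compound itself and of losing the fusion cannot be told apart. The labels give no time for DMSO. They do not call the replicates separate cultures either. The spread behind each p-value is that between libraries of the same group, which may differ for technical reasons alone. It is pooled over all groups of an experiment and drawn towards that of other regions.

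ATAC-seq uses a transposase that cuts and tags accessible DNA, so the read count of a region measures how open it is over the whole population of cells. A region open in more cells and a region more open in each cell cannot be told apart. Open regions are mostly promoters and enhancers, and they crowd together where genes do. Libraries held 18038062 to 31308682 reads in regions in 6086 and 9934147 to 18275976 in 6211. Replicates had a Spearman correlation of 0.989 to 0.993 in 6086 and of 0.968 to 0.981 in 6211 over the regions of both chromosomes. Positions are those of the deposited tables, taken as hg19. A region was called higher or lower where edgeR's quasi-likelihood test gave an adjusted p under 0.05, by the Benjamini-Hochberg method over all regions of its experiment.

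At 2 h in 6086, 97 of 6184 regions of chromosome 1 (1.57%) and 39 of 2006 of chromosome 20 (1.94%) were called higher, where 0.978% of all regions tested were. These were the second highest and the highest shares among the 22 autosomes. The other 20 autosomes together had 417 of 47558 (0.877%). Regions called lower were more numerous, 234 on chromosome 1 (3.78%) and 86 on chromosome 20 (4.29%), against 4.25% of all regions. By that share chromosome 1 stood at the seventeenth place. Gains were also smaller than losses. The median log2 change was 0.32 among gains of chromosome 1 and 0.29 among those of chromosome 20, against -0.53 and -0.51 among the losses. One gain reached 2-fold, on chromosome 1, while 24 losses on chromosome 1 and 6 on chromosome 20 did.

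At 2 h in 6211, 126 of 4608 regions of chromosome 1 (2.73%) and 66 of 1469 of chromosome 20 (4.49%) were called higher, with 1.97% of all regions called. Chromosome 20 had the second highest share after chromosome 12 at 6.49%, and chromosome 1 the fourth, after chromosome 17 at 3.32%. Chromosome 1 in 6211 was close to chromosome 9 at 2.71%. On the other autosomes 613 of 34016 regions (1.80%) were higher, or 466 of 31751 (1.47%) without chromosome 12. Regions called lower were 192 on chromosome 1 (4.17%) and 78 on chromosome 20 (5.31%), against 4.92% of all. No gain on either chromosome reached 2-fold, and the median log2 change of gains was 0.47 and 0.45.

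**Figure D1:**
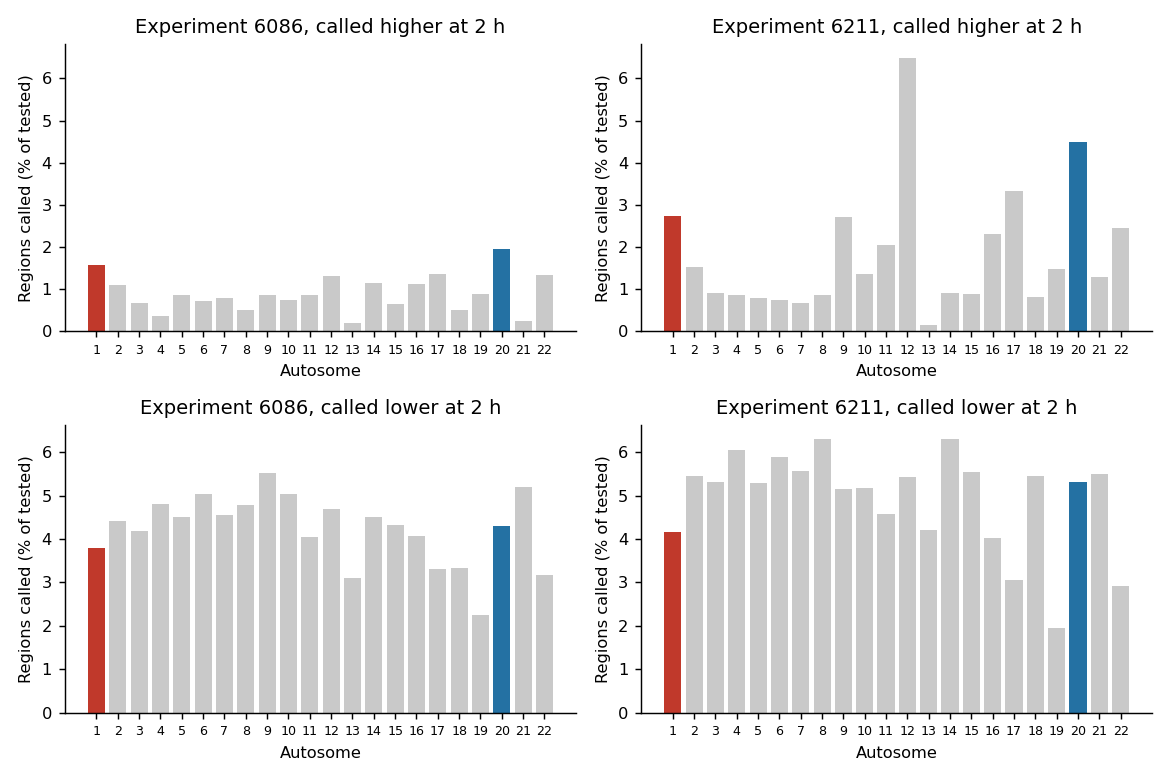
Bars give the percentage of tested regions of each of the 22 autosomes called higher (upper panels) or lower (lower panels) at 2 h, in experiment 6086 (left) and 6211 (right), with chromosome 1 in red and chromosome 20 in blue. Chromosome 20 is the highest in 6086 at 1.94% and stands below chromosome 12 in 6211, while neither chromosome leads among the losses.

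Single libraries moved these counts by more than 1.5 times. In 6086 the gains of chromosome 1 numbered 54 when DMSO A was left out, 25 when 2 h A was and 36 when 2 h B was. Those of chromosome 20 numbered 62 when DMSO B was left out, 10 when 2 h A was and 22 when 2 h B was. In 6211 the counts on chromosome 1 were 21 with DMSO A left out, 60 with 2 h A left out and 16 with 2 h B left out. On chromosome 20 they were 15, 39 and 7 for the same libraries. The ranks moved less than the counts. Chromosome 20 had the highest or the second highest share in all 13 alternatives run for 6086, and stood between the second and the fourth place in the 12 run for 6211. Chromosome 1 ranged from the second to the sixth place and from the fourth to the eighth. Its share lay above that of the other autosomes in all 13 and in 11 of 12, the exception being 6211 without DMSO library A, at 0.46% against 0.47%. DESeq2, which the submitters' notes name, called far fewer regions. At 2 h in 6086 the authors' deposited table had 12 regions of chromosome 1 (0.194%) and 8 of chromosome 20 (0.399%) called higher, against 0.105% on the other autosomes. For 6211 the authors' deposited table gave 20 (0.434%) and 10 (0.681%), against 0.367%.

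The median over all regions of each chromosome was slightly above 0 at 2 h, as on several other autosomes. At 2 h the median log2 change was 0.01 on chromosome 1 and 0.02 on chromosome 20 in 6086, with 53.5% and 56.2% of regions above 0. In 6211 the medians were 0.03 and 0.06, with 56.1% and 61.7% above 0. By this median chromosome 20 was the second of the 22 autosomes in both experiments, after chromosome 22 in 6086 and chromosome 17 in 6211. Chromosome 1 was the fourth and the sixth. Relative to the other autosomes, regions of chromosome 20 had a median of -0.003 and 0.003 in DMSO libraries A and B of 6211. The values were 0.014 and 0.022 at 0.5 h, 0.017 and 0.040 at 1 h, and 0.052 and 0.075 at 2 h. Each treated library of 6211 lay above both DMSO libraries, and the 2 h pair was the highest. In 6086 the same measure was 0.004 and -0.004 in DMSO and 0.019 and 0.022 at 2 h. It was then 0.005 in both 4 h libraries and -0.019 and -0.008 at 24 h. The median of chromosome 20 in 6086 was thus above the DMSO libraries at 2 h and below them at 24 h. The 2 h shift was not shared by both arms, split as described below. In 6086 the 2 h libraries were at -0.002 and 0.002 on the short arm and 0.025 and 0.027 on the long arm. In 6211 they were at -0.039 and -0.049 on the short arm and 0.083 and 0.107 on the long arm. In read shares, chromosome 20 took 4.25% and 4.29% of autosomal reads in the DMSO libraries of 6211 and 4.39% and 4.43% at 2 h, while chromosome 1 went from 12.2% in both to 12.4% in both.

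The gains of chromosome 20 lay mostly on its long arm, 34 of 39 in 6086 and 63 of 66 in 6211. Arms were split at the widest stretch without regions, which in 6086 ran from 26190309 to 29611678 on chromosome 20 and from 121485490 to 143743380 on chromosome 1. In 6086 34 of 1499 regions of the long arm of chromosome 20 (2.27%) were higher at 2 h, against 5 of 507 (0.986%) on its short arm. In 6211 there were 63 of 1103 (5.71%) and 3 of 366 (0.82%). The median log2 change at 2 h in 6211 was 0.10 on the long arm, with 69.3% of regions above 0, and -0.04 on the short arm, with 38.8% above 0. On chromosome 1 both arms had 1.57% of regions higher in 6086, 60 of 3822 and 37 of 2362. In 6211 its short arm had 91 of 2863 (3.18%) and its long arm 35 of 1745 (2.01%). Because gains chose the chromosomes, these arm differences were not tested.

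The chromosomes were cut into bins of 1 Mb, and the gains at 2 h were counted in each. On chromosome 20 the bin from 62 to 63 Mb, near the end of the long arm, held the most in both experiments, with 8 gains among 76 regions in 6086 and 11 among 53 in 6211. Its neighbour from 61 to 62 Mb held 3 of 91 and 10 of 66, and in 6086 it tied with 2 other bins of 3 gains. Other high bins were 33 to 34 Mb in 6086, with 4 of 66, and 56 to 57 Mb in 6211, with 8 of 57. The top 3 bins held 38.5% of the gains of chromosome 20 in 6086 but 11.6% of its regions. In 6211 the top 3 held 43.9% of gains and 12% of regions. These bins were picked for their number of gains, so a larger share of gains than of regions is bound to appear. Whether gains gather more than that was not tested. The median level of the 62 to 63 Mb bin in 6086, relative to the DMSO mean, was -0.004 and 0.004 in the DMSO libraries and 0.105 and 0.065 at 2 h. In 6211 that of the 61 to 62 Mb bin was -0.042 and 0.042 in DMSO and 0.159 and 0.194 at 2 h, so in both bins the 2 h libraries lay above both DMSO libraries. The stretch beyond 60 Mb had 12 gains among 209 regions in 6086 and 25 among 157 in 6211, and between 10 and 20 Mb there was none in either experiment among 142 and 101 regions. Over the alternatives the count beyond 60 Mb ranged in 6086 from 2, with 2 h A left out, to 24, with DMSO B left out. In 6211 it went from 5, by DESeq2 or with DMSO A or 2 h B left out, to 25.

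In 6086 the gains of chromosome 1 fell in 55 of 222 bins, at most 4 to a bin. In 6211 they fell in 54 of 222, at most 9 to a bin. Gains of chromosome 20 fell in 19 of its 60 bins in each experiment. The top 3 bins of chromosome 1, also picked for their gains, held 12.4% of its gains and 3.27% of its regions in 6086. In 6211 they held 17.5% and 3.28%. In 6086 6 bins tied at 4 gains, among them 228 to 229 Mb with 42 regions and 156 to 157 Mb and 33 to 34 Mb with 80 regions each. In 6211 the top bins were 205 to 206 Mb with 9 of 45, 3 to 4 Mb with 7 of 49 and 22 to 23 Mb with 6 of 57. The place of the top bin on chromosome 1 moved with the bin width. With bins of 2 Mb it was 204 to 206 Mb in 6086 and 2 to 4 Mb in 6211, and with bins of 0.5 Mb it was 19 to 19.5 Mb and 205 to 205.5 Mb. On chromosome 20 it stayed beyond 60 Mb at all 3 widths in both experiments. In segments of 10 Mb, the first 3 held 13, 8 and 13 gains in 6086, among 486, 452 and 586 regions (2.67%, 1.77% and 2.22%). In 6211 they held 26, 16 and 19, among 384, 358 and 435 (6.77%, 4.47% and 4.37%). The segment from 200 to 210 Mb held 14 of 480 (2.92%) and 21 of 339 (6.19%). That from 150 to 160 Mb held 11 of 370 (2.97%) and 5 of 291 (1.72%). Over the whole chromosome the shares were 1.57% and 2.73%. The segments between 60 and 80 Mb had no gain, with 230 and 107 regions in 6086 and 161 and 75 in 6211. Those from 230 Mb to the end had none either, with 193 and 122 regions and 130 and 97.

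**Figure D2:**
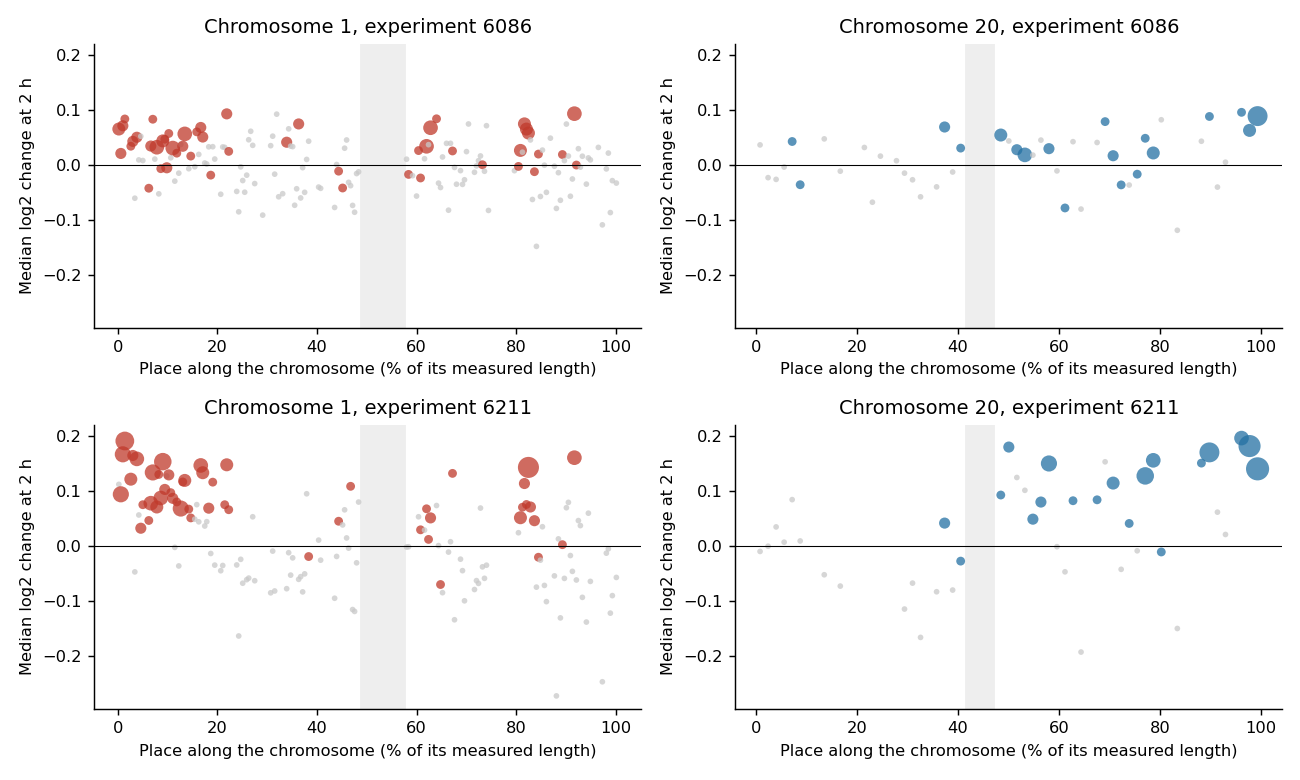
Each point is a bin of 1 Mb with at least 10 tested regions, placed along chromosome 1 (left) or 20 (right) as a percentage of its measured length, with its median log2 change at 2 h on the vertical axis for 6086 (upper) and 6211 (lower). Coloured points hold at least 1 gain and are drawn larger with more gains, grey points hold none, and the grey band is the gap used to split the arms. The largest coloured points on chromosome 20 lie at the long-arm end, while those of chromosome 1 lie on both arms.

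The bin profiles of the 2 experiments were alike at 2 h, and their DMSO and treated libraries are separate. Over 189 bins with at least 10 regions in both, the bin medians at 2 h had Pearson's r = 0.668 and Spearman's rho = 0.635. The values were 0.637 and 0.599 over the 146 bins of chromosome 1 and 0.747 and 0.690 over the 43 of chromosome 20. These are descriptions, since bins share their libraries, their depth and their base composition. The 2 h profile of 6211 was less like the later profiles of 6086, with r = 0.379 at 4 h and 0.183 at 24 h. The drop was mainly on chromosome 1, at 0.298 and 0.076, while chromosome 20 had 0.627 and 0.486. The 2 h profile of 6086 had r = 0.577 with the 0.5 h profile of 6211 and 0.622 with the 1 h profile. The difference between DMSO libraries B and A of 6211, which no treatment separates, also had r = 0.353 with the 2 h profile of 6086, at 0.298 on chromosome 1 and 0.576 on chromosome 20. The last stands beside the 0.747 between the 2 h profiles there. The same difference in 6086 had r = 0.276 with the 2 h profile of 6211, at 0.261 on chromosome 1 and 0.342 on chromosome 20. The part of these differences between DMSO libraries in the result was not tested.

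Bins with gains held more regions than bins without, as any constant rate of gains per region would also give. In 6086 the median number of regions per bin was 50 in bins of chromosome 1 with a gain and 17 in those without, and 54 and 15 on chromosome 20. In 6211 it was 40.5 and 12.5 on chromosome 1 and 42 and 14 on chromosome 20. To compare shares rather than counts, regions of all autosomes were divided into quartiles by the number of regions in their bin. The densest quartile, above 53 regions per Mb in 6086, held 37.4% of the regions of chromosome 1 and 43.0% of those of chromosome 20 but 21.3% of those of the other autosomes. In 6211, where it began above 41 regions per Mb, it held 35.2%, 47.1% and 21.9%. Both chromosomes thus had more of their regions in dense bins than the rest of the genome.

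Shares in the densest quartile were higher than overall on both chromosomes and on the others. In 6086 2.38% of its regions on chromosome 1, 3.24% on chromosome 20 and 1.70% on the other autosomes were higher at 2 h. In 6211 the shares were 5.06%, 7.23% and 4.66%, the last being 3.19% without chromosome 12. Chromosome 20 was the highest of the 3 groups in that quartile in both experiments. The excess was not seen at every density. In the second quartile the shares were 0.568%, 1.97% and 0.726% in 6086, and 0.540%, 0.980% and 1.09% in 6211. There chromosome 1 lay below the other autosomes in both experiments, and chromosome 20 in 6211. Few gains lie behind these shares, 7 and 5 on chromosome 1 and 4 and 2 on chromosome 20, and the order of the groups was not tested. In the sparsest quartile of 6086 the shares were 1.10%, 0.379% and 0.424%, with 10, 1 and 57 gains. In the third quartile both chromosomes lay above the others in both experiments. In the sparsest quartile of 6211 the shares were 0.629%, 0.719% and 0.289%, with 4, 1 and 28 gains. The median log2 change there was -0.07 on chromosome 1, -0.11 on chromosome 20 and -0.07 on the others. Dense bins were above 0 in the same fit, at 0.08, 0.11 and 0.07, and this split by density was seen on the other autosomes as well.

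**Figure D3:**
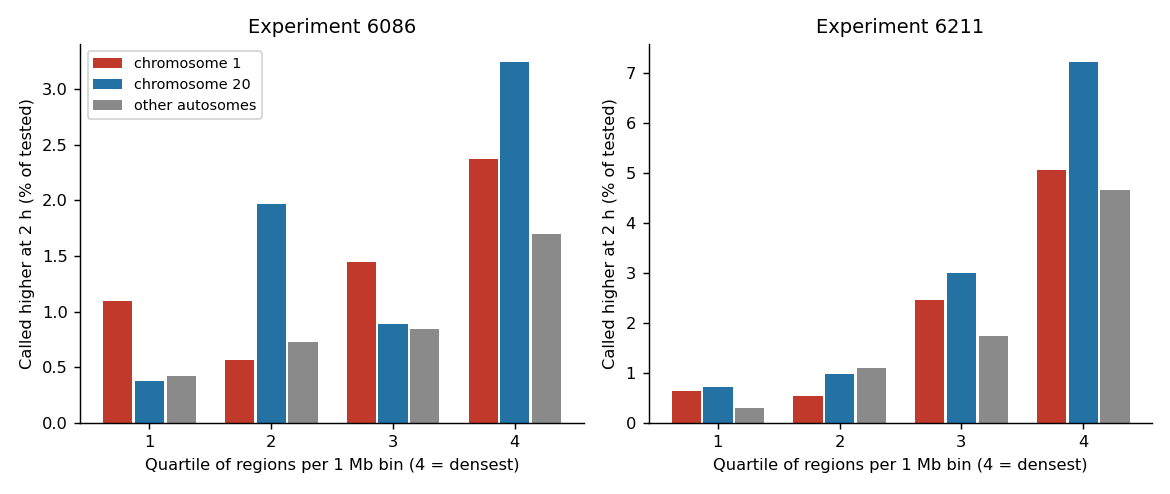
Bars show the percentage of tested regions called higher at 2 h in 6086 (left) and 6211 (right), by quartile of the number of regions in the same 1 Mb bin, for chromosome 1 (red), chromosome 20 (blue) and the other 20 autosomes (grey). In the densest quartile of 6211 the bars reach 5.06%, 7.23% and 4.66%.

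The same axis separated libraries of 1 group. On chromosomes 1 and 20, regions of the densest quartile in 6211 had a median log2 level, relative to the DMSO mean, of -0.016 and 0.016 in DMSO libraries A and B. The values were 0.021 and 0.043 at 0.5 h, 0.045 and 0.097 at 1 h, and 0.089 and 0.096 at 2 h. Regions of the sparsest quartile had the opposite sign, from 0.013 and -0.013 in DMSO to -0.081 and -0.083 at 2 h. At 1 h library B stood near the 2 h libraries and library A near the 0.5 h libraries. In 6086 the densest quartile was at 0.046 and 0.021 in the 2 h libraries and 0.002 and -0.002 in DMSO. Its level was -0.022 and -0.012 at 24 h, below both DMSO libraries. In both experiments the 2 h libraries lay above the DMSO libraries in dense bins, and DMSO library B of 6211 lay on the same side of library A. The part of this difference between libraries in the gains was not tested.

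**Figure D4:**
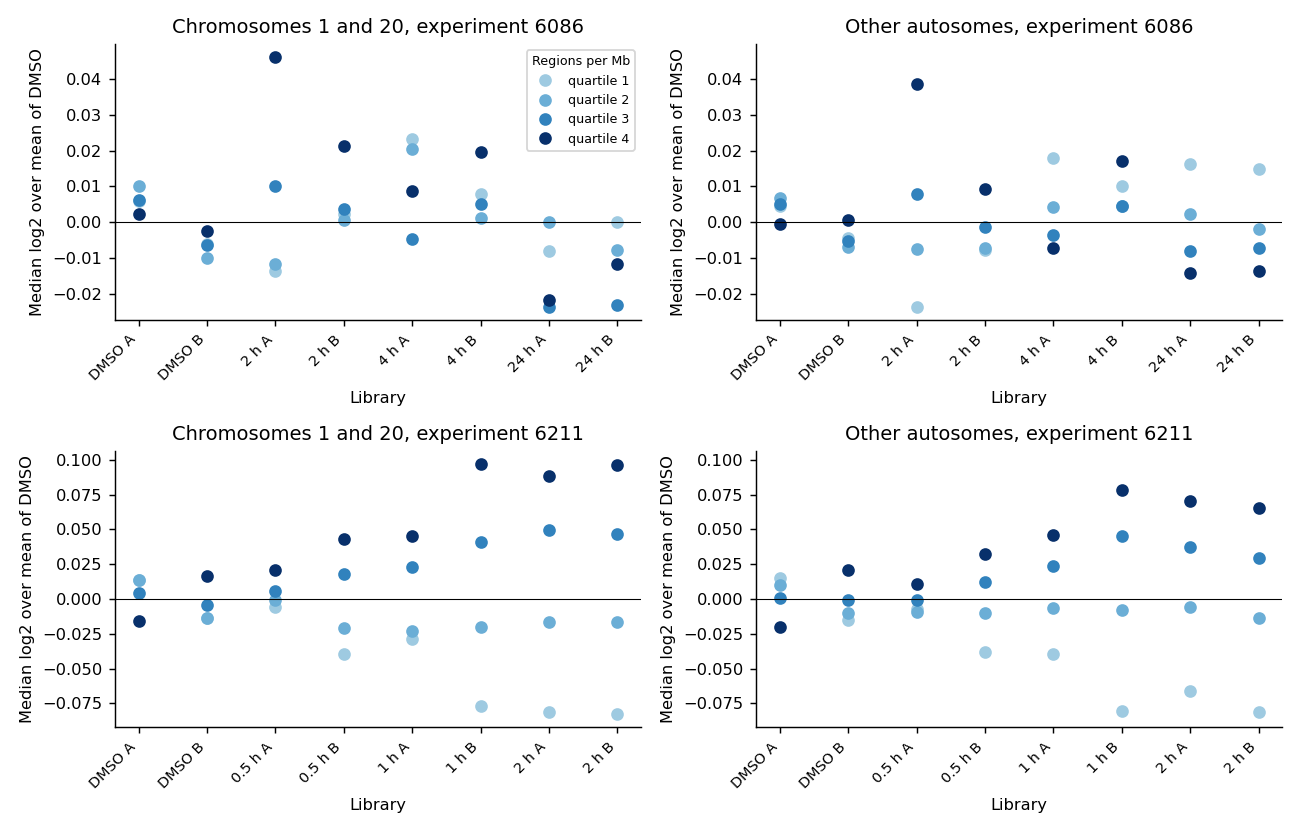
Points give, for each library, the median log2 level relative to the mean of the DMSO libraries over regions in each quartile of regions per 1 Mb bin, pale for the sparsest and dark for the densest, on chromosomes 1 and 20 (left) and the other autosomes (right) of 6086 (upper) and 6211 (lower). In 6211 the quartiles fan out from DMSO to 2 h on both sides of the plot, reaching 0.096 and -0.083 in 2 h library B on chromosomes 1 and 20.

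When the scaling factors were computed separately for each quartile, an alternative chosen after seeing the data, 73 gains on chromosome 1 and 29 on chromosome 20 were left in 6086. In 6211 69 and 32 were left. The share of chromosome 1 in 6211 was then 1.5% against 1.46% on the other autosomes, at the seventh place. Chromosome 20 stayed the second highest, at 2.18%. With factors computed separately for each chromosome, which take out any shift of a whole chromosome, 6086 had 71 and 27 gains and 6211 had 90 and 31. Chromosome 20 was the second highest in both experiments under that scaling, at 1.35% and 2.11%, where the other autosomes had 0.92% and 1.71%.

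Called regions, gains and losses alike, were wider and more open at the start in 6086. Gains had a median width of 482 bp and losses of 407.5 bp, against 333 bp over all tested regions of both chromosomes, and a median DMSO level of 17.3 and 17.1 CPM against 11.2 CPM. Gains of the other autosomes were also wider than all their regions, 412 against 318 bp, and higher in DMSO, 13.3 against 10.3 CPM. The share called higher in 6086 rose from the lowest to the highest quartile of mean count. It went from 0.681% to 2.59% on chromosome 1, 0.630% to 3.40% on chromosome 20 and 0.499% to 1.31% on the others. In 6211 it was 2.66% and 2.61%, 2.88% and 4.58%, and 1.39% and 2.03%. The top quartile of 6086 held 28.7%, 30.8% and 24.3% of their regions. The part of read depth in these shares was not tested. CPM is the scaled read count relative to all reads in regions, and levels are not compared between the tables because their regions differ in width. In 6211, where most regions are 401 bp wide, gains had a median of 16.2 CPM in DMSO against 19.8 CPM over all. The higher starting level of gains in 6086 was thus not seen in 6211. Minus the median of their own bin, the median change of gains was 0.28 in 6086 and 0.34 in 6211, which is a description since gains were chosen on that change. Of 136 gains in 6086, 23.5% lay within 100 kb of a region called lower, against 28.4% of all regions and 46.6% of the 320 losses themselves. In 6211 it was 18.8% of gains, 24.5% of all regions and 31.9% of losses. On chromosome 1 the share was lower among gains than among all regions, 18.6% against 26.8% in 6086 and 11.9% against 22.4% in 6211. The other autosomes went the same way, 17.0% against 23.5% and 15.8% against 19.2%. On chromosome 20, with only 39 and 66 gains, it was close to that of all regions, 35.9% against 33.3% and 31.8% against 30.9%.

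Regions gained in both experiments were singled out by matching regions that overlapped by at least 50% each way. Of 4207 matched regions, 3197 on chromosome 1 and 1010 on chromosome 20, 84 were higher at 2 h in 6086 and 146 in 6211, and 26 in both. These 26, 19 on chromosome 1 and 7 on chromosome 20, are 31.0% of the gains of 6086 and 17.8% of those of 6211. They are 0.618% of the matched regions, where 0.287% of all 29639 matched regions and 0.238% of those of the other autosomes were higher in both. Leaving out 1 library gave 3 to 29 such regions, with 14, 7 and 13 without DMSO A, 2 h A and 2 h B of 6086, and 3, 17 and 4 without DMSO A, 2 h A and 2 h B of 6211. Of the 84 gains of 6086, 79 had a positive change in 6211, and of the 146 gains of 6211, 132 had one in 6086. These include the 26, whose signs match by definition. On the other autosomes 248 of 260 and 397 of 422 had one. Losses of chromosomes 1 and 20 were called in both more often than gains, 152 of 206 in 6086 and of 189 in 6211. They are 3.61% of matched regions, against 3.76% of all. None of the matched regions was called in opposite directions. The difference between the 2 experiments' changes was tested by an interaction term. In edgeR's quasi-likelihood fit 0 of the 4207 regions passed, with a lowest adjusted p of 0.902. At an unadjusted p under 0.05 in that fit were 218 of them, and 1539 of all 29639 matched regions.

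The pair of overlapping regions at chr20:61596600-61596830 in 6086 and chr20:61596516-61596916 in 6211, in the dense end of the long arm, had the largest mean change. In 6086 it measured 5.32 and 5.12 CPM in DMSO, 8.09 and 7.09 at 2 h, 6.38 and 6.07 at 4 h and 5.49 and 5.20 at 24 h. Both 2 h libraries were above every other library. The log2 change at 2 h was 0.54 ± 0.13 (SE), and at 24 h 0.04 ± 0.13. In 6211 it measured 8.43 and 12.1 CPM in DMSO, 10.3 and 12.3 at 0.5 h, 12 and 11.1 at 1 h and 14 and 18.3 at 2 h. The 2 h libraries were again the highest, while the 0.5 and 1 h libraries lay between the DMSO libraries or just above them. The change at 2 h was 0.66 ± 0.17. This gain was lost under 3 of 13 alternatives in 6086 and under 4 of 12 in 6211.

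On the short arm of chromosome 1, the region at chr1:7669056-7669260 gained at 2 h and was below its starting level a day later. It measured 5.21 and 6.53 CPM in DMSO, 8.26 and 8.10 at 2 h, 6.07 and 6.43 at 4 h and 3.06 and 2.88 at 24 h. The 2 h libraries were the highest and the 24 h libraries the lowest. Its log2 change was 0.45 ± 0.12 at 2 h and -1.01 ± 0.14 at 24 h, the latter with an adjusted p of 9.9e-07 in edgeR's quasi-likelihood test. Its partner in 6211, chr1:7668962-7669362, had 6.88 and 9.04 CPM in DMSO and 13.2 and 11.6 at 2 h, a change of 0.66 ± 0.16. The 2 h gain was lost under 4 of 13 alternatives in 6086 and under 3 of 12 in 6211. Further along that arm, chr1:16465544-16465949, followed the same course with 11.4 and 13.9 CPM in DMSO, 17.2 and 17.1 at 2 h and 7.33 and 8.78 at 24 h. It fell by 0.67 on the log2 scale at 24 h, and its 2 h gain was lost under 3 of 13 alternatives.

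Some other regions were still above both DMSO libraries at 24 h, though not called at every time. The long-arm region chr1:154812169-154812491 measured 8.85 and 7.90 CPM in DMSO, 12.4 and 10.9 at 2 h, 10.9 and 9.87 at 4 h and 12.2 and 12.8 at 24 h. All treated libraries were above both DMSO libraries. Its change at 4 h, 0.32 ± 0.11, was not called. The region was higher at 24 h by 0.59 ± 0.10 (adjusted p = 2.3e-05, edgeR's quasi-likelihood test), and its partner in 6211 was already called at 1 h, at 0.55 ± 0.15. On the long arm of chromosome 20, chr20:44062015-44062327 had 7.95 and 8.84 CPM in DMSO, 11.4 and 11.7 at 2 h, 11.2 and 11.6 at 4 h and 9.70 and 10.5 at 24 h. Its change was 0.43 ± 0.10 at 4 h, which was called, and 0.26 ± 0.10 at 24 h, which was not. The region chr20:48232148-48232539 was called each time, by 0.41, 0.35 and 0.38. At 2 h it was lost under 4 of 13 alternatives, and its partner in 6211 under 3 of 12. The regions chr1:154812169-154812491 and chr20:44062015-44062327 were each lost at 2 h under 3 of 13, and their partners under 3 of 12. The remaining 4 of the 10 largest recurrent gains, at chr20:62115238-62115565, chr1:42367584-42368222, chr1:21895347-21895625 and chr1:205263519-205264012, had changes of 0.29 to 0.46 at 2 h in 6086 and of -0.05 to 0.10 at 24 h, none called at 24 h. Of these, chr1:21895347-21895625 was lost at 2 h under 5 of 13 alternatives, and the partner of chr1:42367584-42368222 in 6211 under 6 of 12. The partner of chr1:205263519-205264012 was lost under 5 of 12. Over all 26 recurrent gains, whose changes at 2 h ran from 0.21 to 0.54 in 6086 and from 0.31 to 0.66 in 6211, 12 were also higher at 4 h. At 24 h 11 were higher, 4 lower and 11 not called.

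The largest gains of a single experiment were mostly weak regions. In 6086 the region chr1:46259730-46259844, the gain past 2-fold, had 0.840 and 0.665 CPM in DMSO and 1.66 and 1.65 CPM at 2 h, with a mean count of 33.2 over the 8 libraries, so few reads lie behind it. Its log2 change was 1.16 ± 0.29. The next on chromosome 1, chr1:19221094-19221302, rose further with time, from 2.13 and 3.21 CPM in DMSO to 4.40 and 4.22 at 2 h and 7.33 and 7.95 at 24 h. Its change at 24 h was 1.47 ± 0.15 (adjusted p = 1.1e-09, edgeR's quasi-likelihood test). The region chr1:145412978-145413299 did likewise, at 0.58 ± 0.16 and then 1.01 ± 0.14. At 2 h each of these gains of chromosome 1 was lost under 4 of 13 alternatives. On chromosome 20, chr20:33956911-33957091 led at 0.70 ± 0.22, but it was lost under 9 of 13 alternatives. The others, chr20:32261437-32261712 and chr20:36120708-36120938, changed by 0.63 ± 0.13 and 0.59 ± 0.17. They were lost under 1 and 4 of 13.

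The 6 leading gains of 6211 had mean counts of 115 to 211. The region chr20:60912623-60913023 measured 10.4 and 13.8 CPM in DMSO, 15.3 and 15.8 at 0.5 h, 13.8 and 16.9 at 1 h and 22.9 and 24.4 at 2 h. Both 2 h libraries stood clear of all others. Its log2 change at 2 h was 0.98 ± 0.14, and it was kept under all 12 alternatives, as was chr1:27933690-27934090 at 0.90 ± 0.15. That region measured 7.76 and 9.98 CPM in DMSO, 10.7 in both 0.5 h libraries, 11.5 and 12 at 1 h and 15 and 17.9 at 2 h. Smaller gains were chr1:202198402-202198802 at 0.79 ± 0.16, chr1:6230904-6231304 at 0.75 ± 0.15 and chr20:62609138-62609538 at 0.68 ± 0.16. They were lost under 2, 1 and 2 of 12 alternatives. The region chr20:25290503-25290903, at 0.68 ± 0.17, was 1 of the 3 gains on the short arm of chromosome 20. It was lost under 3 of 12.

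At 0.5 h no region of the 6077 was called higher, where 0% of all regions were, and 1 was lower, where 0.00735% were. Without DMSO library B 32 were higher and 14 lower, and without DMSO A or either 0.5 h library none was lower. DESeq2 also gave 0 higher. At an unadjusted p under 0.05, 179 of the 6077 were higher, and 764 of 34016 on the other autosomes. The lower region, named because it was the only one, was chr1:36071004-36071404. It measured 55.3 and 51.3 CPM in DMSO, 32.2 and 35.7 at 0.5 h, 32.0 and 27.1 at 1 h and 15.8 and 16.9 at 2 h, a log2 change of -0.65 ± 0.10 at 0.5 h and -1.71 ± 0.11 at 2 h. It was thus called earlier than any gain on both chromosomes.

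At 1 h 17 regions were higher, 14 on chromosome 1 and 3 on chromosome 20, where 0.22% of all regions were, and 135 were lower (95 and 40), where 2.47% were. These counts rested on single libraries: 1, 196, 74 and 0 regions were higher without DMSO A, DMSO B, 1 h A and 1 h B, and 48, 216 and 27 were lower without DMSO A, DMSO B and 1 h B. Only 7 of the 17 were also called higher at 2 h. Of these, chr20:62115222-62115622, whose partner in 6086 was named above, measured 15.5 and 18 CPM in DMSO, 19.9 and 18 at 0.5 h, 22.9 and 24.5 at 1 h and 25.5 and 25.2 at 2 h. It was kept at 2 h under all 12 alternatives, while its partner in 6086 was lost under 8 of 13. Directly compared, 1 h against 0.5 h gave 0 calls in either direction, as did DESeq2, where 0% of all regions were called. At an unadjusted p under 0.05, 160 of 6077 were higher and 152 lower. On the other autosomes 730 and 1247 of 34016 were. For 2 h against 1 h, 4 of 6077 were higher (0.0658%), where 0.326% of all regions were, and 0.0535% on the other autosomes without chromosome 12. Another 20 were lower (0.329%), where 0.316% of all regions were. Without 1 h A, 1 h B, 2 h A and 2 h B, the higher count was 1, 0, 6 and 0 and the lower count 8, 6, 36 and 3.

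The gains of 1 experiment were followed in the other. Both tables were used to pick the chromosomes, so the 2 h values are a description. The 84 matched gains of 6086 had a median log2 level in 6211, relative to the DMSO mean, of 0.092 and 0.097 in the 0.5 h libraries, 0.123 and 0.227 at 1 h and 0.283 and 0.306 at 2 h. The DMSO libraries were at -0.020 and 0.020. The levels at 0.5 h were thus already above both DMSO libraries. The 146 matched gains of 6211 had median changes in 6086 that went from 0.17 at 2 h to 0.13 at 4 h and then to 0.01 at 24 h. At 24 h 42 of the 146 were higher and 36 lower. The 260 matched gains of 6086 on the other autosomes took a similar course in 6211, with medians of 0.09, 0.16 and 0.28.

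**Figure D5:**
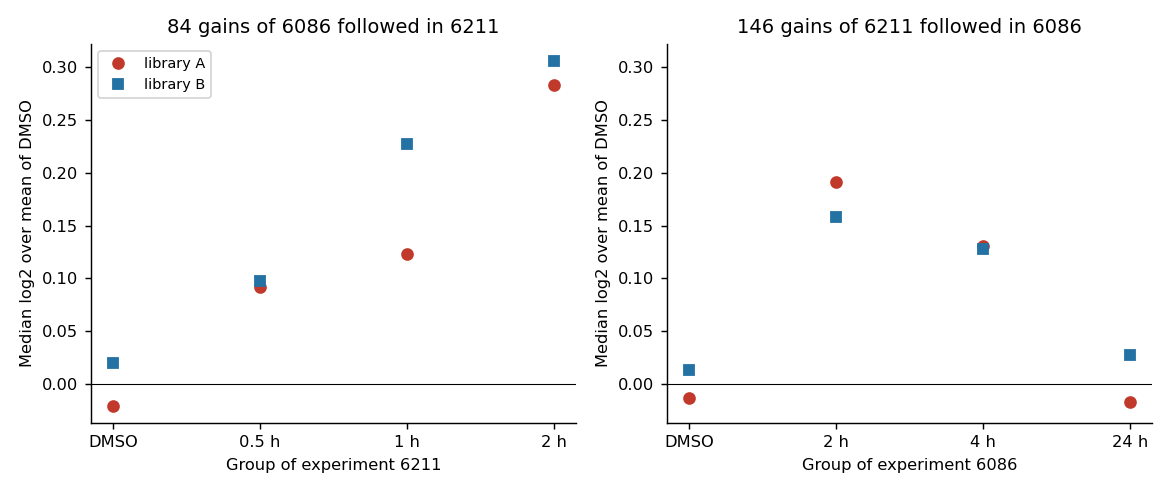
Points show the median log2 level, relative to the mean of the DMSO libraries, of 84 gains of 6086 on chromosomes 1 and 20 in each library of 6211 (left) and of 146 gains of 6211 in each library of 6086 (right), with library A as circles and library B as squares. The left panel climbs to 0.283 and 0.306 at 2 h, and the right panel returns to the DMSO level at 24 h.

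At 4 h 196 regions of both chromosomes were called higher, 144 on chromosome 1 (2.33%) and 52 on chromosome 20 (2.59%), where 1.75% of all regions were. Chromosome 20 had the highest share of the 22 autosomes and chromosome 1 the second. Without 4 h B chromosome 20 fell to rank 4, and without 4 h A chromosome 1 fell to rank 6. Regions called lower were 339 and 119, against 5.44% of all. The gains numbered 62 with 4 h A left out and 80 with 4 h B left out, and the 458 losses numbered 300 with 4 h B left out. Of the 136 gains of 2 h, 60 were called again at 4 h and 132 had a positive change, with a median of 0.23. The other autosomes were similar, with 163 of 417 called again, 409 positive and a median of 0.25. These comparisons share their DMSO libraries. Directly compared, 4 h against 2 h gave 1 region higher, where 0.00351% of all regions were, and 8 lower, where 0.0773% were, and 0 in either direction without any 1 of the 4 libraries. The higher region, chr1:193304921-193305419, was named for being the only one. It had 8.46 and 8.37 CPM in DMSO, 8.30 and 8.19 at 2 h, 12.1 and 11.3 at 4 h and 13.1 and 13.6 at 24 h.

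By 24 h the gains of chromosome 1 had become ordinary in number. There were 843 (13.6%), the same as the 13.6% of all regions, and chromosome 1 stood at the eleventh place. Chromosome 20 still led, with 323 of 2006 regions (16.1%). It now led among losses too, with 439 (21.9%), and chromosome 1 was the fourth with 1256 (20.3%), where 18.6% of all regions were lower. The median log2 change had turned slightly negative, at -0.02 on chromosome 1 and -0.01 on chromosome 20. Against 2 h directly, 986 regions were higher and 1705 lower, where 12.8% and 17.6% of all regions were. By chromosome the shares higher were 11.6% and 13.4%, and those lower 20.5% and 21.9%. The stretch of chromosome 20 beyond 60 Mb, where early gains were densest, had 41 regions higher and 44 lower at 24 h among its 209. The authors' deposited table for 24 h called 490 regions of chromosome 1 (7.92%) and 187 of chromosome 20 (9.32%) higher, against 7.26% on the other autosomes.

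Far more regions were called at 24 h than before, so most late gains had to be uncalled early. Of the 1166 gains at 24 h, 992 (85.1%) had not been called at 2 or 4 h, against 89.9% on the other autosomes. Of the 136 gains of 2 h, 66 were higher at 24 h and 23 lower, with a median change of 0.18. On the other autosomes 168 of 417 were higher and 79 lower. Of 320 regions lower at 2 h, 291 were lower at 4 h (90.9%) and 276 at 24 h (86.2%), by comparisons that share the DMSO libraries, and the median change went from -0.52 to -0.65 and -0.76. On the other autosomes 1759 of 2053 (85.7%) were lower again at each of these times. One region lower at 2 h was higher at 24 h and is named for that. It was chr1:95632987-95633518, with 32.4 and 30.2 CPM in DMSO, 25 and 26.7 at 2 h, 25.5 and 25.7 at 4 h and 36.3 and 34.9 at 24 h.

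On each chromosome the pair of regions with the largest gain at 24 h had not been called at 2 h. The region chr1:55025490-55025695 measured 2.18 and 2.43 CPM in DMSO, 2.28 and 2.03 at 2 h, 2.60 and 2.48 at 4 h and 7.20 and 7.48 at 24 h. Only its 24 h libraries stood apart from DMSO, at a log2 change of 1.66 ± 0.14 (adjusted p = 3.1e-11, edgeR's quasi-likelihood test). On chromosome 20, chr20:55090936-55091277 went from 3.75 CPM in both DMSO libraries to 10.6 and 10.9 at 24 h, a change of 1.52 ± 0.13, with -0.04 ± 0.16 at 2 h. The others were chr1:51876609-51877092 at 1.52 ± 0.11 and chr20:43432339-43432611 at 1.41 ± 0.13. The former had 5.66 and 5.24 CPM in DMSO and 6.14 and 7.93 at 2 h, and it was already called at 4 h, at 0.59 ± 0.13. All 4 were kept under each alternative run.

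The deepest losses were larger than any gain, and 3 of those named here overlap a named loss of the other experiment. On chromosome 20, chr20:40621138-40621554 had 13.5 and 13.8 CPM in DMSO, 3.49 and 3.25 at 2 h, 2.65 and 2.28 at 4 h and 2.70 and 2.82 at 24 h. Its log2 change was -2.02 ± 0.12 at 2 h and -2.31 ± 0.12 at 24 h, so most of it had occurred by 2 h. In 6211 the overlapping region had 25.7 and 18.4 CPM in DMSO, 13.1 and 13.5 at 0.5 h, 9.60 and 10.9 at 1 h and 5.92 and 6.69 at 2 h. A second region on the same arm, chr20:40555841-40556253, fell by 1.52 on the log2 scale at 2 h and by 2.92 at 24 h. The region chr20:42912748-42913027 fell by 3.20 at 24 h, and its overlapping region in 6211, chr20:42912652-42913052, by 1.68 at 2 h.

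On chromosome 1, chr1:235344341-235344631 had 9.52 and 9.23 CPM in DMSO, 2.95 and 2.57 at 2 h, 2.21 and 1.48 at 4 h and 0.723 and 1.20 at 24 h. Each later group lay below the one before it, and the log2 change at 24 h was -3.27 ± 0.18 (adjusted p = 1.9e-16, edgeR's quasi-likelihood test). It lies in a stretch of chromosome 1 without gains at 2 h in either experiment. In 6211 the overlapping region had 18.2 and 12.1 CPM in DMSO, 9.56 and 10.2 at 0.5 h, 6.95 and 4.50 at 1 h and 2.54 and 3.99 at 2 h. The region chr1:161698481-161698786 fell by 1.78 at 2 h and by 2.95 at 24 h, and chr1:71891058-71891458 by 1.78 at 2 h in 6211. All of these losses were kept under each alternative run.

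One stretch at the tip of chromosome 1 stood out by depth and was looked at after its values were seen. The reference holds a known copy of mitochondrial DNA there, so reads of the mitochondrial genome can be placed in it. Its 2 regions in 6086, chr1:567469-567685 and chr1:569772-570031, had mean counts of 12154 and 14973 and were both among the 97 gains of chromosome 1, at 0.24 ± 0.06 and 0.27 ± 0.06. The first measured 373 and 490 CPM in DMSO and 541 and 481 at 2 h, so the groups overlapped, and it was the 1 gain among 136 whose 2 h libraries were not both above both DMSO libraries. In 6211 the overlapping regions went the other way at 2 h without being called, at -0.33 ± 0.22 and -0.26 ± 0.22. The first of them ranged there from 198 CPM in 2 h library B to 494 CPM in 1 h library B.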

How the data were processed

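ATAC-seq read counts of 16 libraries of Rh30 cells were taken from 2 deposited tables, 1 per experiment, with raw counts per region as the authors deposited them. The 6 deposited comparison tables hold the authors' log2 fold changes and p-values and were used only where named. Per the submitters' processing notes, the tools included Genrich 0.6.1, Bowtie2, DESeq2, DiffBind, deepTools and Trimmomatic 0.32, with the builds hg19 and dm3. Read shifting for the transposase, duplicate removal and the merging of regions are steps not given in the sources used here. No hg19 genome or annotation was used, so regions carry no gene names, sequences or base composition.

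The test was edgeR 4.0.16 under R 4.3.3 (quasi-likelihood fit on group means, TMM factors, filterByExpr), with the 8 libraries of an experiment in 1 fit, Benjamini-Hochberg adjustment over all its regions and calls at an adjusted p under 0.05. TMM assumes that most regions do not change, so a change common to all regions would not be seen. The standard error is the log2 change divided by the square root of F. Biological coefficients of variation were 3.48% (6086) and 5.96% (6211), with 4 residual degrees of freedom. Prior degrees of freedom, borrowed from other regions, were 29.9 (6086) and 19.6 (6211), so most of the spread used is borrowed. With 2 libraries against 2, an exact permutation test of a single value cannot go below p = 0.333, so none was used. Library levels in log2 are log-CPM with a prior count of 2, minus the mean of the DMSO libraries. Regions were matched between experiments with bedtools 2.31.1 as single partners. The main edgeR fit of each experiment was tested on simulated data for 2 h against DMSO, and so was the interaction test. The other times and the alternative fits were not.

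Column names give treatment and time, and their letters A and B could not be tied to the labels' replicate numbers. The differences A minus B of 2 groups had correlations of -0.137 to 0.211, so letters were not used as pairs. Named regions are the 10 largest mean changes among recurrent gains. To these were added, for each experiment and chromosome, the 3 highest and 2 lowest changes at 2 h, and the 2 highest and 2 lowest at 24 h, among called regions whose mean count reached 30 and whose treated libraries were both above or both below the pair of DMSO libraries. Regions named outside this rule are said to be. The members and lists were chosen with earlier results of these data known. Alternatives were DESeq2 1.42.0, median-ratio and library-size scaling, TMM per chromosome, no filter, a replicate block, only the groups compared, each library left out, regions with a mean count of at least 100, other bin widths and other overlaps. TMM per density quartile and a crossed block were chosen after seeing the data.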

Additional observations from a re-analysis of the deposited data

How the results depend on the processing

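Median-ratio scaling, library size only, no filter on low counts, regions with a mean count of at least 100, bins of 2 Mb and 25% overlap kept every count within 1.5 times and every median shift within the spread of replicates. Of 213 values recomputed under alternatives other than leaving out a library, 170 stayed within these limits and 43 moved, none changing direction. DESeq2 moved 17 of its 23, all to fewer calls. On chromosomes 1 and 20 it gave 12 and 8 gains at 2 h in 6086 with 200 losses, 20 and 10 gains in 6211 with 172 losses, 1 gain and 55 losses at 1 h, 44 and 295 at 4 h, 677 gains at 24 h and 2 recurrent gains. For 4 h against 2 h it gave 0 higher and 4 lower, for 24 h against 2 h 505 higher, and for 2 h against 1 h 0 higher and 5 lower. When the fit held just the groups compared, gains at 2 h were 59 and 25 in 6086 and 50 and 32 in 6211, with 2 lower at 0.5 h, 3 higher at 1 h, 127 higher at 4 h and 12 recurrent gains. For 4 h against 2 h that fit gave 7 higher and 35 lower, for 1 h against 0.5 h 3 lower, and for 2 h against 1 h 31 lower.

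TMM per chromosome gave 31 gains on chromosome 20 at 2 h in 6211, 3 losses at 0.5 h and 17 recurrent gains. TMM per density quartile gave 69 and 32 gains at 2 h in 6211, 2 losses at 0.5 h, 15 recurrent gains and 0 higher for 4 h against 2 h. An overlap of 80% left 8 recurrent gains, where fewer regions match, and bins of 0.5 Mb put 7 gains in the top bin of chromosome 20 in 6211. With the letter as a replicate block, gains at 2 h were 80 and 32 in 6086 and 155 and 79 in 6211. The block gave 3 losses at 0.5 h, 30 gains at 1 h, and 0 higher and 5 lower for 4 h against 2 h, and kept the other counts within 1.5 times. The crossed block gave 121 and 50 gains and 348 losses at 2 h in 6086.

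Leaving out each library in turn gave 25 to 145 gains on chromosome 1 and 10 to 62 on chromosome 20 at 2 h in 6086, with 204 to 384 losses. In 6211 it gave 16 to 178 and 7 to 84 gains with 166 to 301 losses. Gains and losses were 0 to 32 and 0 to 14 at 0.5 h, 0 to 196 and 27 to 216 at 1 h, 62 to 199 and 300 to 480 at 4 h, and 832 to 1085 and 1375 to 1513 at 24 h. For 4 h against 2 h there were 0 in both directions, for 24 h against 2 h 665 to 743 higher and 1328 to 1405 lower, and for 2 h against 1 h 0 to 6 higher and 3 to 36 lower. Recurrent gains numbered 3 to 29. The median shift against the other autosomes at 2 h was 0.010 to 0.014 on chromosome 1 and 0.018 to 0.026 on chromosome 20 in 6086, and 0.028 to 0.037 and 0.052 to 0.077 in 6211. Where a group was left with 1 library, that library is assumed to vary like the others. The cause of these moves was not tested. Gains on these chromosomes are nearly all below 2-fold, and what depth leaves undetected among them was not tested.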
